A study of Bos taurus with 12 samples.

Results

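The 10 genes described here serve antigen processing and presentation by molecules of the major histocompatibility complex (MHC): B2M, PSMB8, PSMB9, TAP1, TAP2, TAPBP, CD74, BOLA-DRA, NLRC5 and CIITA. They were chosen by name, and a name was accepted when a probe other than a control spot carried it as gene symbol in the annotation of all 12 array files, which held for 10 of the 10 names out of 17719 gene symbols on the array. Endometrium, the inner lining of the uterus, was sampled by biopsy between the caruncles on Day 15 of a synchronised oestrous cycle, and the total RNA of each animal was hybridised to 1 one-colour Agilent array. Old females (OF, 13 to 14 years, nulliparous, n = 4) and young females (YF, 4 to 5 years, primiparous, n = 4) were Holstein clones obtained by somatic cell nuclear transfer from 1 donor cell line and were kept in the same housing. Age and parity therefore cannot be told apart, and both groups carry 1 nuclear genotype. The Contemporary group held 4 cows whose age, parity and origin are not given in the sources used here. The authors set cow 1111 of this group aside for a divergent phenotype, so that 3 Contemporary cows entered the comparisons. The array of cow 1111 is described on its own at the end.

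MHC class I molecules show peptides from proteins made inside a cell to cytotoxic T cells, and need beta-2-microglobulin as light chain, a proteasome that cuts proteins into peptides, and a transporter that carries the peptides into the endoplasmic reticulum. MHC class II molecules show peptides from engulfed material to helper T cells and are found mainly on dendritic cells, macrophages and B cells, although epithelial and endothelial cells can make them too. In ruminant endometrium many of these genes are known to respond to interferons, interferon tau from the conceptus among them, and the animals sampled here were cyclic.

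Levels are given as the log2 processed signal of a probe minus the 75th percentile of its array, averaged over the probes of a transcript, so that a level of 0 stands for the brightness of the 75th percentile. Each array carried 61549 probe spots besides 1319 control spots. The 75th percentile lay between an intensity of 968 in OF 2258 and 1597 in Contemporary 1129, between 71.6% and 74.9% of the probe spots were well above background, and 0 were saturated. The number of arrays, 4, 4 and 3 in the groups compared, limits the precision. OF 0245, YF 1070, YF 1072 and cow 1111 lay on slide 1 and the other 8 arrays on slide 2. All 3 Contemporary cows compared were thus on slide 2, and slide 1 held too few arrays for a comparison of its own. Per-animal values below are in the order OF 0233, 0234, 0245 and 2258, then YF 1069, 1070, 1072 and 1127, then Contemporary 1068, 1128 and 1129.

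The tissue label was checked against cell type markers. All 8 epithelial markers and all 8 stromal markers were well above background on the 12 arrays, with EPCAM as the most abundant epithelial gene (mean level 3.73) and COL3A1 as the most abundant stromal gene (6.55). OF 2258 stood apart from the other animals. It had the lowest level of the 11 animals for 8 of 8 epithelial genes and the highest for 9 of 9 smooth muscle genes. The mean of the smooth muscle list was 0.08, 3.52, 0.86 and 5.15 in the OF animals, 0.48, 0.00, 1.19 and -0.34 in YF, and 0.69, 0.18 and 0.29 in the Contemporary cows. OF 0234 was thus the next highest after OF 2258. ACTA2, the brightest gene of the list and an actin of contractile cells, was at 8.72 in OF 2258 and 7.47 in OF 0234, against 3.63 to 5.08 in the other 9 animals. The mean of the epithelial list was -0.66 in OF 2258 and between 0.10 (YF 1069) and 2.10 (OF 0245) in the others. Several results below are therefore also given without OF 2258, or without both OF 0234 and 2258, the latter a choice made after seeing the data. In bulk tissue, fewer cells of a type and less RNA per cell cannot be told apart.

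In the comparison of OF with YF, which addresses ageing, no member passed the test. Of the 19755 transcripts tested with limma, 0 (0%) had an adjusted p within 0.05 and 478 had an unadjusted p within 0.05, and 0 of the 10 members were in either count. The fold change rank method FCROS called 1300 of 26323 transcripts (4.94%) and 0 of the 10 members. Its f-value places each transcript within the spread of average ranks over all transcripts. The f-value limits thus mark a share of transcripts whether or not the groups differ, and the 1300 are no measure of a difference. The member nearest to the FCROS threshold was PSMB9, with an f-value of 0.0284 against a limit of 0.025, and its YF to OF ratio of 1.38 was below the fold of 1.5 that was required. PSMB9 also belongs to a gene list that the study had chosen on these samples. The groups did not overlap for 302 transcripts (1.53%), of which 118 were lower in OF (0.597%). Of the 10 members 1 was separated in this way, B2M, which was lower in OF. By the sign of the difference of means, 4 members were higher and 6 lower in OF, with a median difference of -0.17 beside 0.01 over all transcripts tested. Without OF 2258 that median was -0.03, and without OF 0234 and 2258 it was 0.13 with 7 members higher and 3 lower.

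The Contemporary cows were compared with each clone group, and the 2 comparisons share these 3 cows. Against YF, limma called 0 of 19993 transcripts (0%), 606 had an unadjusted p within 0.05, and the groups did not overlap for 765 (3.83%), with 302 higher in the Contemporary cows (1.51%). Among the members limma called 0 of 10, BOLA-DRA and CIITA had an unadjusted p within 0.05, and the same 2 genes did not overlap between the groups, both higher in the Contemporary cows. Against OF, limma called 0 of 19914 transcripts (0%), 911 had an unadjusted p within 0.05, and the groups did not overlap for 1153 (5.79%), with 570 higher in the Contemporary cows (2.86%). Here limma again called 0 of 10 members, and B2M and BOLA-DRA had an unadjusted p within 0.05 and did not overlap, both higher in the Contemporary cows. The difference of means was positive for 9 of 10 members against YF (median 0.24, beside -0.02 over all transcripts) and for 10 of 10 against OF (median 0.42, beside -0.04). Against OF the median was 0.30 without OF 2258, and 0.13 with 8 members higher and 2 lower without OF 0234 and 2258. On slide 2 alone, where all used Contemporary cows lay, the median against YF was 0.44 with 10 of 10 members higher, and 7 members did not overlap, as did 16.7% of all transcripts with these few animals.

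**Figure D1:**
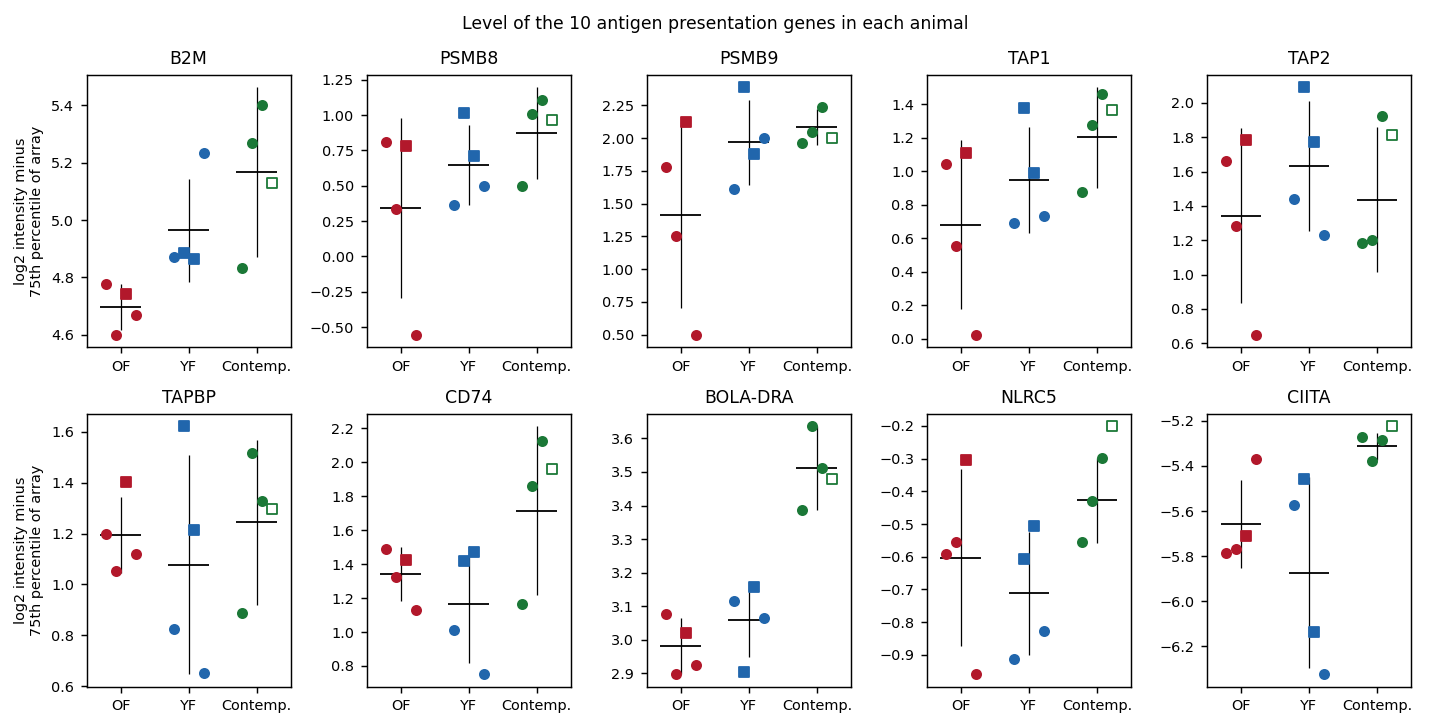
Level of each of the 10 genes in every animal (vertical axes, log2 relative to the 75th percentile of the array), with OF in red, YF in blue and Contemporary cows in green, squares for slide 1, circles for slide 2, an open symbol for cow 1111 and bars for the mean ± SD of the animals used. B2M is the only panel in which the OF animals (4.60 to 4.78) lie below all YF animals (4.87 to 5.23), and in the BOLA-DRA panel the Contemporary cows (3.39 to 3.64) lie above all clones (2.90 to 3.16).

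B2M encodes beta-2-microglobulin, the light chain shared by all classical class I molecules (chromosome 10, 104139090 to 104145312 of the UMD 3.1 bovine assembly). As B2M is the 1 member that separated OF from YF, the first 30 of the 60 bases of its 2 probes are shown, to let the reader see which stretches of the transcript ENSBTAT00000016359 were measured. The place of the probes within exons or untranslated regions was not determined, as no genome sequence was used.
B2M probe 1: aggtgtggagggaagaactctgacgtccaa
B2M probe 2: ggtgttttgcgcacaaattatagtcagata

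The B2M level was 4.78, 4.60, 4.74 and 4.67 in OF, 4.87, 4.89, 4.86 and 5.23 in YF, and 4.83, 5.27 and 5.40 in the Contemporary cows. Every OF animal was thus below every other animal, the narrowest distance being 0.06 to Contemporary 1068, whereas YF and Contemporary cows overlapped. Group means were 4.70 ± 0.08 (SD, n = 4) in OF, 4.96 ± 0.18 (SD, n = 4) in YF and 5.17 ± 0.30 (SD, n = 3) in the Contemporary cows. The OF mean minus the YF mean was -0.27 (SE 0.14, limma adjusted p = 0.999; exact two-sided permutation p = 0.0286, the smallest that 4 against 4 animals allow). On slide 2 alone this difference was -0.37, and without OF 0234 and 2258 it was -0.20. Leaving animals out cannot make separate groups overlap, so the lack of overlap in these smaller sets adds nothing. Of all transcripts 14.2% and 12.1% did not overlap in them. Without YF 1127, the highest of the YF animals, the B2M difference was -0.18. With quantile normalization the OF and YF values overlapped, and the difference was -0.33. The Contemporary mean minus the OF mean was 0.47 (SE 0.18, limma adjusted p = 0.912), and 0.49 on slide 2, but the groups overlapped with quantile normalization. Its exact p was 0.0571, which is the smallest that 3 against 4 animals allow, so that no exact test with the Contemporary cows can reach 0.05. Against YF the Contemporary difference was 0.20 (exact permutation p = 0.4), and 0.09 without Contemporary 1129. Both B2M probes separated the groups in the same 2 comparisons, probe 1 with an OF minus YF difference of -0.26 and probe 2 with -0.28.

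PSMB8 and PSMB9 encode interferon-inducible catalytic subunits of the immunoproteasome, which shifts the cleavage of proteins towards peptides that fit class I molecules. TAP1 and TAP2 form the transporter that moves those peptides into the endoplasmic reticulum. The 4 genes lie side by side in the class II region of chromosome 23, with TAP2 at 7079669 to 7109540, PSMB8 at 7113304 to 7116676, TAP1 at 7117863 to 7126822 and PSMB9 at 7127079 to 7133608.

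The PSMB9 level was 1.78, 1.25, 2.12 and 0.50 in OF, 1.61, 2.39, 1.88 and 2.0 in YF, and 1.97, 2.05 and 2.23 in the Contemporary cows. OF 2258 was lowest and OF 0234 next, OF 0245 was above 3 of the 4 YF animals, and the groups overlapped. PSMB8 was at 0.81, 0.33, 0.78 and -0.56 in OF, 0.36, 1.01, 0.71 and 0.50 in YF, and 0.50, 1.01 and 1.11 in the Contemporary cows. Again OF 2258 was lowest by a wide margin, while OF 0233 and 0245 were above 3 of the 4 YF animals.

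For TAP1 the levels were 1.05, 0.55, 1.11 and 0.02 in OF, 0.69, 1.38, 0.99 and 0.73 in YF, and 0.87, 1.27 and 1.46 in the Contemporary cows. TAP2 was at 1.66, 1.28, 1.78 and 0.65 in OF, 1.44, 2.09, 1.77 and 1.23 in YF, and 1.18, 1.20 and 1.93 in the Contemporary cows. Both transporter genes were lowest in OF 2258 and highest in Contemporary 1129 (TAP1) or YF 1070 (TAP2), and all groups overlapped.

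In these 4 genes the OF minus YF difference was -0.56 for PSMB9 (SE 0.35), -0.30 for PSMB8 (SE 0.31), -0.29 for TAP2 (SE 0.29) and -0.27 for TAP1 (SE 0.27), each with a limma adjusted p of 0.999. Exact permutation p-values ran from 0.229 for PSMB9 to 0.514 for PSMB8. OF 2258 decided most of these differences: without it they were -0.25 for PSMB9, -0.005 for PSMB8, -0.06 for TAP2 and -0.05 for TAP1. Without OF 0234 and 2258 the sign turned for PSMB8 (0.15), TAP1 (0.13) and TAP2 (0.09), and PSMB9 was at -0.02. The Contemporary minus OF difference was 0.67 for PSMB9, 0.53 for PSMB8, 0.52 for TAP1 and 0.09 for TAP2, and without OF 2258 it was 0.37, 0.23, 0.30 and -0.14 in the same order. Without OF 0234 and 2258 it was 0.13, 0.08, 0.13 and -0.29. The part that the smooth muscle and epithelial content of OF 2258 and OF 0234 has in these values was not tested. Against YF the Contemporary cows differed by 0.26 for TAP1, 0.23 for PSMB8, 0.11 for PSMB9 and -0.20 for TAP2, and on slide 2 alone by 0.49, 0.44, 0.28 and 0.10. Single animals moved these too, as without YF 1069 the PSMB9 difference was -0.005, and without Contemporary 1129 that of TAP1 was 0.13 and that of PSMB8 0.11. That of TAP2 ran from -0.44 to -0.04 with 1 animal left out. At -0.44, without Contemporary 1129, TAP2 was lower in the Contemporary cows and did not overlap, nor did 8.06% of all transcripts.

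PSMB9 and TAP2, like CD74, were measured by 4 spots that hold 2 probe sequences printed at 2 places each. The 2 spots of such a probe differed by a median of 0.05 and by at most 0.34 on the log2 scale over the 6 member probes concerned. For TAP1 a second transcript on the array, ENSBTAT00000011787, ranged from -2.64 to -1.14 and followed the first over the 11 animals (Pearson r = 0.977, a description of probes of 1 gene). A second TAP2 transcript, ENSBTAT00000048998, ranged from -4.24 to -2.84 (r = 0.793 with the first).

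TAPBP encodes tapasin, which holds empty class I molecules at the transporter until a peptide is bound (chromosome 23, 7415849 to 7425523). Its level ran from 1.05 to 1.40 in OF, from 0.65 (YF 1127) to 1.62 (YF 1070) in YF and from 0.89 to 1.52 in the Contemporary cows, so that the widest spread was among the YF animals. The OF mean minus the YF mean was 0.12 (SE 0.22, exact permutation p = 0.657). This sign rested on YF 1127, without which the difference was -0.03, and it also turned with array weights (-0.12). On slide 2 alone, with 3 OF and 2 YF animals, the difference was 0.39 and the groups did not overlap, as was so for 14.2% of all transcripts there. Between Contemporary cows and OF the TAPBP means differed by 0.05, and by -0.09 without Contemporary 1128.

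CD74 encodes the invariant chain, which fills the groove of new class II molecules and guides them to the endosomes (chromosome 7, 63748885 to 63756646). Its level was 1.49, 1.32, 1.43 and 1.13 in OF, 1.01, 1.42, 1.47 and 0.75 in YF, and 1.16, 1.86 and 2.12 in the Contemporary cows. Contemporary 1128 and 1129 were above all 8 clones, Contemporary 1068 was among them, and YF 1127 was lowest. The Contemporary mean minus the YF mean was 0.55 (SE 0.28, exact permutation p = 0.171). It was 0.83 on slide 2 alone, also 0.83 without Contemporary 1068, and 0.35 without Contemporary 1129. Against OF the difference was 0.37 (exact permutation p = 0.229), and it was 0.65 without Contemporary 1068 and 0.17 without Contemporary 1129. Between OF and YF, CD74 differed by 0.18 (exact permutation p = 0.371), by 0.04 without YF 1127, and by 0.43 on slide 2 alone, where the groups did not overlap, nor did 14.2% of all transcripts.

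BOLA-DRA encodes the alpha chain of the class II molecule DR, which hardly varies between cattle (chromosome 23, 25587526 to 25592227). Because BOLA-DRA separated the Contemporary cows from both clone groups, the first 30 of the 60 bases of its 2 probes to ENSBTAT00000014072 are shown. Their place within the exons was not determined either.
BOLA-DRA probe 1: tttcttctaactgtgattgtcatttttctg
BOLA-DRA probe 2: ttttttcctgctacagaacctttggaaagt

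The BOLA-DRA level was 3.08, 2.90, 3.02 and 2.92 in OF, 3.12, 2.90, 3.16 and 3.06 in YF, and 3.39, 3.64 and 3.51 in the Contemporary cows. All 3 Contemporary cows were above all 8 clones, the narrowest distance being 0.23 to YF 1072, and OF and YF overlapped. Group means were 2.98 ± 0.08 (SD, n = 4) in OF, 3.06 ± 0.11 (SD, n = 4) in YF and 3.51 ± 0.12 (SD, n = 3) in the Contemporary cows. The Contemporary mean was 0.45 above YF (SE 0.15, limma unadjusted p = 0.0173, adjusted p = 1.0) and 0.53 above OF (SE 0.15, limma unadjusted p = 0.00821, adjusted p = 0.904). Exact permutation gave p = 0.0571 in both comparisons, the smallest possible with 3 against 4. On slide 2 alone the differences were 0.42 and 0.54. The lack of overlap there follows from that of the full groups, and 16.7% and 12.2% of all transcripts did not overlap there. Each of the 2 BOLA-DRA probes separated the Contemporary cows from both clone groups. The OF mean minus the YF mean was -0.08 (exact permutation p = 0.286). Origin, age and genotype of the Contemporary cows go with the group and cannot be told apart.

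**Figure D2:**
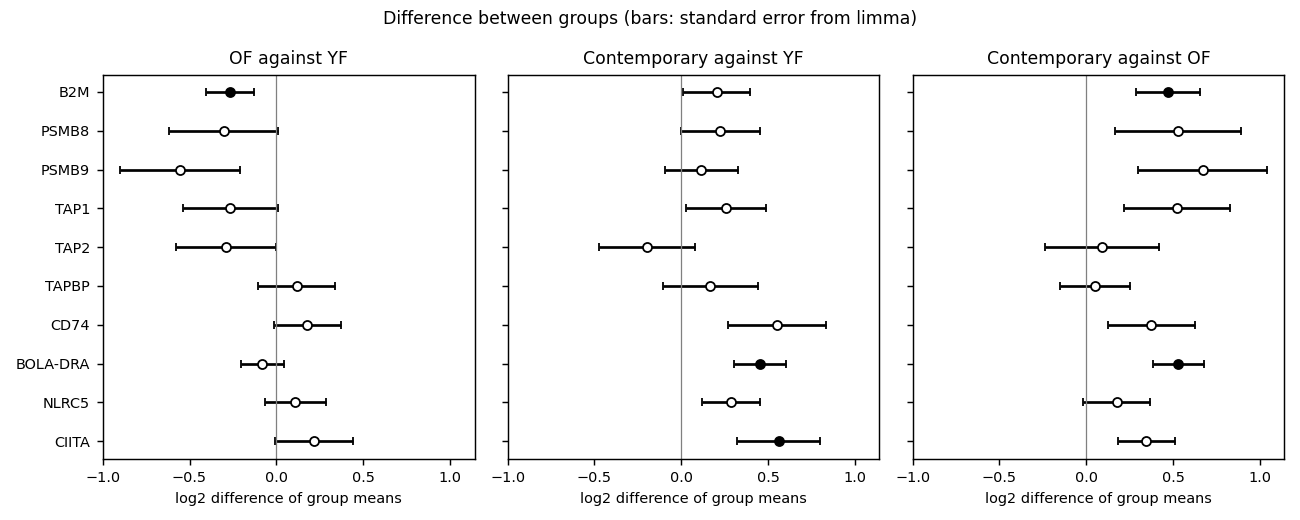
Difference of group means (horizontal axes, log2) for each of the 10 genes in the comparisons OF minus YF, Contemporary minus YF and Contemporary minus OF, with bars for the standard error from limma and filled points where the groups do not overlap. Filled points are B2M at -0.27 (OF minus YF), BOLA-DRA at 0.45 and CIITA at 0.56 (Contemporary minus YF), and BOLA-DRA at 0.53 and B2M at 0.47 (Contemporary minus OF).

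NLRC5 and CIITA encode related proteins that switch on MHC genes from their promoters, NLRC5 those of class I and CIITA those of class II. NLRC5 (chromosome 18, 25126947 to 25184749) was at -0.59, -0.55, -0.30 and -0.96 in OF, -0.91, -0.61, -0.51 and -0.83 in YF, and -0.56, -0.43 and -0.30 in the Contemporary cows. OF 2258 was lowest, Contemporary 1129 highest, and all groups overlapped. The differences were 0.11 for OF minus YF, 0.28 for Contemporary minus YF and 0.18 for Contemporary minus OF, with exact permutation p-values of 0.571, 0.114 and 0.343. The 2 NLRC5 probes disagreed. Probe 1 gave -0.19 for OF minus YF and 0.55 for Contemporary minus OF, whereas probe 2 gave 0.41 and -0.20, so no direction is given for this gene in these 2 comparisons. Without OF 0245 the OF minus YF difference of NLRC5 was 0.01, and without OF 2258 the Contemporary minus OF difference was 0.06.

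CIITA (chromosome 25, 9604334 to 9662902) was close to the background of the arrays, with 1 of its probes well above background on 12 arrays and the other on 9. Its level was -5.78, -5.77, -5.71 and -5.37 in OF, -5.57, -5.46, -6.14 and -6.32 in YF, and -5.27, -5.38 and -5.29 in the Contemporary cows. The Contemporary cows were above all YF animals, by at least 0.08, and among the OF animals only OF 2258 was level with them. The Contemporary mean minus the YF mean was 0.56 (SE 0.24, limma unadjusted p = 0.0495, adjusted p = 1.0; exact permutation p = 0.0571, the smallest possible). Only probe 2 separated these groups, and with normexp background correction they overlapped and the difference was 0.14. The Contemporary minus OF difference of CIITA was 0.35 (exact permutation p = 0.114), and it was -0.04 with normexp background correction. The OF minus YF difference was 0.21 (exact permutation p = 0.4), and 0.06 without YF 1127.

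Across the members, by the mean of the probes of each gene, OF 2258 had the lowest level of the 11 animals for 5 genes (PSMB8, PSMB9, TAP1, TAP2 and, though not by its probe 2, NLRC5), YF 1127 for 3 (TAPBP, CD74 and CIITA) and OF 0234 for 2 (B2M and BOLA-DRA). Contemporary 1129 had the highest level for 5 genes, YF 1070 for 3, and Contemporary 1128 and 1068 for 1 each. By these means no member was lowest in a Contemporary cow, and none was highest in an OF animal.

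The covariation of the members between animals was described after subtracting the mean of each group, over 11 animals and 45 pairs of genes. By Pearson's r 13 pairs had a permutation p within 0.05 after Benjamini-Hochberg adjustment over the 45 pairs, and by Spearman's rho 14 did, while r was positive for 39 pairs and negative for 6. The permutation shuffled the centred values over all 11 animals and made no allowance for the group means subtracted. The permutation p-values here and in the next paragraph are therefore somewhat too small, and pairs near 0.05 are uncertain. All 6 pairs among PSMB8, PSMB9, TAP1 and TAP2 were among the 13, with r from 0.83 to 0.98 (5 of the 6 by rho). Within slide 2 the r of these 6 pairs ran from 0.79 to 0.98, and without OF 2258 from 0.70 to 0.98. Without OF 2258 the pair of PSMB9 and TAP2 had an adjusted permutation p of 0.0696 and was no longer among those within 0.05. PSMB8 and TAP1, whose genes are neighbours, were the closest pair, with r = 0.98 (permutation p = 1e-05, the smallest that 100000 resamples can give, adjusted p = 0.00045) and rho = 0.96 (permutation p = 2e-05, adjusted p = 0.0009). Without the 2 animals farthest from the median of PSMB8, OF 2258 and Contemporary 1068, their r was 0.97, and within slide 2 it was 0.98.

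The other 7 pairs joined NLRC5 to each of these 4 genes and CD74 to TAP1, TAP2 and TAPBP. NLRC5 and PSMB8 had r = 0.85 (permutation p = 0.00097, adjusted p = 0.00605) and rho = 0.75 (permutation p = 0.0102, adjusted p = 0.0418), with r = 0.69 without OF 2258 and Contemporary 1068 and 0.91 within slide 2. This r rested on 1 of the 2 NLRC5 probes, as the level of PSMB8 had r = 0.88 with NLRC5 probe 1 and 0.009 with probe 2, and over the 4 genes probe 2 gave r of at most 0.24. The 4 pairs of NLRC5 too were not within 0.05 without OF 2258, where their adjusted permutation p ran from 0.0615 to 0.147. Other pairs came within 0.05 by r without OF 2258. They were PSMB8 and TAPBP (r = 0.86, adjusted permutation p = 0.0171), TAP1 and TAPBP (r = 0.87, adjusted permutation p = 0.0171), and PSMB8 and CD74 (r = 0.81, adjusted permutation p = 0.0301). CD74 and TAPBP had r = 0.80 (permutation p = 0.00302, adjusted p = 0.0124) and rho = 0.75 (permutation p = 0.00976, adjusted p = 0.0418), with r = 0.79 without YF 1070 and 1127 and 0.82 within slide 2. Over the spots of CD74, r ran from 0.46 to 0.53 with TAPBP probe 1 and from 0.90 to 0.94 with its probe 2. B2M, BOLA-DRA and CIITA were in none of the 13 pairs. For B2M and BOLA-DRA, the members that separated groups at the highest levels, r was 0.45 (permutation p = 0.165, adjusted p = 0.338) and rho 0.29 (permutation p = 0.385, adjusted p = 0.625), with r = 0.33 without Contemporary 1068 and YF 1127 and 0.54 within slide 2.

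**Figure D3:**
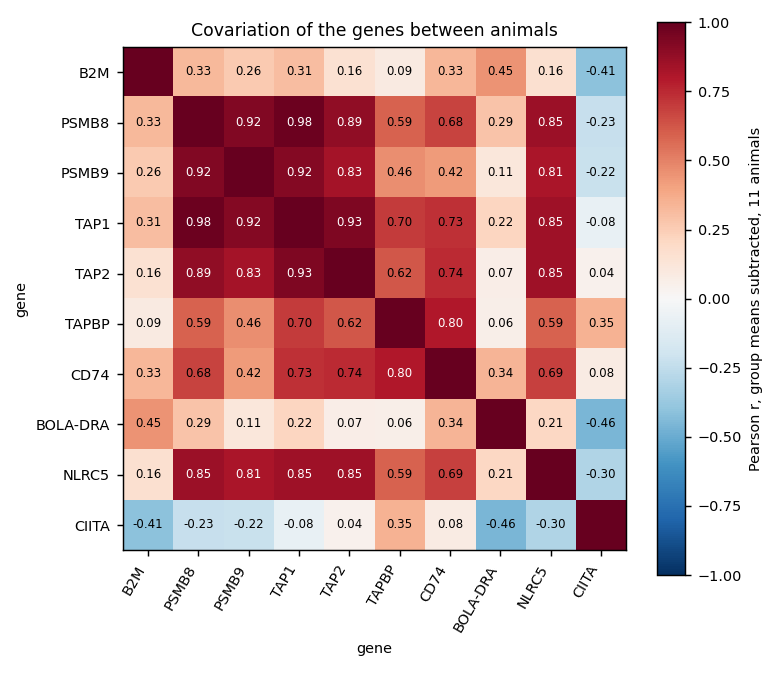
Pearson's r between the levels of each pair of the 10 genes over 11 animals after subtracting group means (colour scale from -1 to 1). PSMB8, PSMB9, TAP1 and TAP2 form a block with r from 0.83 to 0.98, NLRC5 has an r of 0.85 with PSMB8 (0.88 by its probe 1 and 0.009 by its probe 2), and B2M, BOLA-DRA and CIITA lie outside the block.

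Among 20081 other transcripts tested in all 3 groups, counting only those with a gene symbol and leaving aside other transcripts of the same gene, the levels most like TAP1 over the 11 animals were those of PSMB8 (r = 0.981), CCDC57 (0.951), the class I heavy chain BOLA (0.951), UBE2Q1 (0.946) and HERC2 (0.939). BOLA, which pairs with beta-2-microglobulin, was at 5.06, 4.86, 5.24 and 4.35 in OF, 4.77, 5.39, 5.14 and 4.93 in YF, and 4.88, 5.22 and 5.22 in the Contemporary cows, and was lowest in OF 2258 as TAP1 was. Most like CD74 were FECH (0.933), the leukocyte integrin ITGAL (0.889), LTBP2 (0.889), TARM1 (0.887) and the haematopoietic myosin MYO1G (0.885). FECH (-5.94 to -4.52) and TARM1 (-6.56 to -4.45) were dim, with levels that overlapped those of CIITA. All of these but ITGAL were highest in Contemporary 1129, as CD74 was. These r are descriptions of 11 arrays in 3 groups and carry no test.

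Of 85 further genes of the pathway 73 were on the array. limma called 0 of the 68 tested in OF against YF, 0 of 68 in Contemporary against YF and 0 of 67 in Contemporary against OF, and 1, 5 and 6 of them had an unadjusted p within 0.05. These were BOLA-DQA1 in the first, BOLA-DRB3, BOLA-DOA, IRF8, ERAP2 and BOLA-DQB in the second, and BOLA-DRB3, BOLA-DOA, IRF8, LNPEP, BOLA-DQA1 and BOLA-DQB in the last, of which BOLA-DQB is named after its values were seen. The groups did not overlap for 1 (1.47%), 4 (5.88%) and 5 (7.46%) of them, near the shares of all transcripts given above. In OF against YF 12 were higher and 56 lower in OF (median -0.09), in Contemporary against YF 30 were higher and 38 lower (median -0.01), and in Contemporary against OF 48 were higher and 19 lower (median 0.12). These counts moved with the scaling and the animals. With normexp they were 24 and 44, 36 and 32, and 45 and 22, and without OF 0234 and 2258 the first was 30 and 38 and the last 35 and 33.

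The list nearest to BOLA-DRA holds the other class II chains, of which 12 of 16 were on the array and 10 were tested. Their Contemporary minus YF difference was positive for 9 of 10 (median 0.37) under every scaling tried. Against OF it was positive for 10 of 10 (median 0.50) and for 9 of 10 with normexp background correction or on slide 2 alone. Contemporary 1129 was the highest of the 11 animals for 9 of the 12 chains on the array. The list mean was -2.39, -1.97 and -1.50 in the Contemporary cows, so that Contemporary 1068 lay within the clones (-2.54 to -2.23). The OF minus YF difference was negative for 10 of 10 (median -0.12), but 1 of 10 turned positive with quantile normalization, 2 with median centring, 3 with normexp and 4 on slide 2 alone. BOLA-DRB3, the beta chain that pairs with BOLA-DRA, was at 2.97, 3.05, 3.19 and 3.02 in OF, 3.28, 3.22, 3.29 and 3.13 in YF, and 3.65, 3.63 and 3.68 in the Contemporary cows. The Contemporary cows were above all clones, by 0.43 against YF (SE 0.14, limma adjusted p = 1.0) and by 0.60 against OF (SE 0.14, limma adjusted p = 0.846). BOLA-DOA, a chain of the class II modulator DO, did not overlap in either of these comparisons, with differences of 0.55 and 0.56, or 0.37 and 0.31 with normexp. Whether probes to BOLA-DRB3 and other chains of this list match Contemporary and clone alleles equally well was not tested. For the Contemporary cows, the counts and differences above therefore do not separate allele match from RNA level. BOLA-DQA1, the alpha chain of a DQ molecule, was the 1 gene of the further lists that separated OF from YF, with -2.76, -2.86, -2.90 and -3.10 in OF and -2.29, -2.50, -2.49 and -2.70 in YF. Its OF minus YF difference was -0.41 (SE 0.14, limma unadjusted p = 0.0204, adjusted p = 0.999; exact permutation p = 0.0286), and -0.24 with normexp. As the gene is named for the lack of overlap, this exact p only restates how it was chosen. Of its 2 probes only probe 1 separated the groups.

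Several MHC chains are highly polymorphic, and the signal of a probe to such a gene depends on its match to the alleles an animal carries as well as on the level of the RNA, which cannot be told apart here. Between OF and YF, as clones of 1 line, the alleles are shared, whereas the Contemporary cows may carry others. BOLA-A (ENSBTAT00000031166, chromosome 23, 27647069 to 27652297), a class I heavy chain, was at 3.12 in Contemporary 1129 and between -8.80 and -7.80 in the other 10 animals, where its probes were not well above background except for 1 spot in YF 1069. Another BOLA-DQB transcript, ENSBTAT00000046279, had both probes well above background in Contemporary 1129 alone (-0.16 and 0.10), and 1 of them in YF 1127 (-6.57). BOLA-DQB itself (ENSBTAT00000026100) was between -0.14 and 0.34 in the clones and at 0.16, 1.34 and 2.68 in the Contemporary cows. BOLA-DQA1 was at -2.98, -0.99 and -0.12 in the Contemporary cows. BOLA-NC1, a non-classical class I gene, was between 0.52 and 1.68 in the clones by its probe 1 and at -0.04, 1.97 and -0.40 in the Contemporary cows. By its probe 2 the Contemporary cows (-1.14, -2.15 and -2.02) lay within the range of the clones (-2.41 to -0.94). These genes were singled out after their values were seen.

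How alike these chains can be in places is shown by 30 bases of the probes to BOLA-DQA1 (ENSBTAT00000019939, chromosome 23, 25426330 to 25430097) and BOLA-DQA5 (ENSBTAT00000019800, chromosome 23, 25405113 to 25411643). The stretch was picked as the closest match short of identity among the ungapped placements searched. It therefore does not measure how alike the chains are as a whole. Capitals mark the 4 bases that differ, and the other 26 are the same. The stretch is bases 1 to 30 of the 60 of BOLA-DQA1 probe 1 and bases 17 to 46 of BOLA-DQA5 probe 1, and whether either probe also binds the RNA of the other gene was not tested.
BOLA-DQA1 probe 1: ccctctggcTaCtATacccatgaatttgat
BOLA-DQA5 probe 1: ccctctggcCaGtTCacccatgaatttgat

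Other lists of the pathway gave the following counts. Of the class I heavy chains 3 of 8 were on the array and 2 were tested, and both had a negative OF minus YF difference (median -0.22), which was positive for both without OF 0234 and 2258. In the Contemporary cows 1 was higher and 1 lower in either comparison. The higher was BOLA, whose 2 probe sequences disagreed against YF. The BOLA difference was -0.08 and -0.14 at the 2 spots of 1 sequence and 0.20 and 0.21 at those of the other. Of the class I-like genes, such as MR1 and the Fc receptor gene FCGRT, 6 of 6 had a negative OF minus YF difference (median -0.35), 2 of them positive with normexp and 4 of them positive without OF 0234 and 2258. Against YF the Contemporary cows were higher for 3 of 6, or 4 of 6 with quantile normalization or median centring and 6 of 6 on slide 2 alone, and against OF for 5 of 5, or 4 of 5 with normexp and 2 of 6 without OF 0234 and 2258. The other loading genes, 7 of 8 on the array with CALR (calreticulin) as the brightest, split into 4 higher and 3 lower in OF than in YF, and 3 and 4 with quantile normalization. In the Contemporary cows 1 of these 7 was higher than in YF (2 with quantile normalization or median centring). This was ERAP2, a peptide trimming enzyme, which did not overlap (0.44). Against OF 2 were higher and 5 lower, and LNPEP, a related peptidase, did not overlap (-0.50).

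The other immunoproteasome and proteasome activator genes had a negative OF minus YF difference for 5 of 5 (median -0.13), and for 4 of 5 with median centring or normexp. PSMB10, the immunoproteasome subunit besides PSMB8 and PSMB9, did not overlap between Contemporary cows and OF (0.40, limma unadjusted p = 0.116), but did with quantile normalization or median centring, and the difference was 0.23 without OF 2258. Of the 5 genes 2 were higher in the Contemporary cows than in YF, or 4 with median centring, and 4 were higher than in OF. The constitutive proteasome had 14 of 14 genes on the array, of which 2 were higher and 12 lower in OF than in YF (median -0.07), but 7 and 7 without OF 0234 and 2258. YF 1127 stood apart in this list, as the highest of the 11 animals for 13 of the 14 genes, and without it 10 were higher and 4 lower in OF than in YF, and in the Contemporary cows than in YF. In the Contemporary cows 3 were higher and 11 lower than in YF, or 6 and 8 with median centring, and 6 were higher and 8 lower than in OF. Class II processing genes, among them the cathepsins, split into 3 higher and 5 lower in OF than in YF, and 6 and 2 without OF 0234 and 2258. Against OF 8 of 8 were higher in the Contemporary cows, and 3 of 8 without OF 0234 and 2258, whereas against YF 4 of 8 were, or 5 with median centring or normexp.

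Of 16 further regulators, which include the RFX and NFY factors that bind MHC promoters and the interferon response factors, 3 were higher and 13 lower in OF than in YF, and 8 and 8 with normexp. In the Contemporary cows 7 were higher and 9 lower than in YF, or 10 and 6 with quantile normalization, median centring or normexp. Compared with OF, 12 were higher and 4 lower in the Contemporary cows, or 8 and 8 on slide 2 alone. IRF8, a factor of myeloid and B cells, was at -1.37, -1.96, -1.41 and -2.21 in OF, -1.75, -1.39, -1.63 and -2.09 in YF, and -1.14, -0.35 and -1.32 in the Contemporary cows. It was the regulator that did not overlap between Contemporary cows and either clone group, with differences of 0.78 against YF (limma adjusted p = 1.0) and 0.80 against OF (limma adjusted p = 0.912). Without Contemporary 1128, the highest animal, the differences were 0.48 and 0.51.

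Interferon-stimulated genes, 26 of 28 on the array and with IFI6 as the brightest, are known to respond to the same signals as PSMB8, PSMB9, TAP1 and TAP2. In OF against YF 4 were higher and 18 lower of 22 tested (median -0.43), on slide 2 alone 12 and 11 of 23 (median 0.02). The median was -0.28 without OF 2258, -0.17 without YF 1070 and -0.17 without OF 0234 and 2258. In Contemporary against YF 9 were higher and 15 lower of 24. These counts were 21 and 3 on slide 2 alone, 16 and 8 without YF 1070, 6 and 18 without YF 1069, and 3 and 22 without YF 1127. In Contemporary against OF 19 were higher and 5 lower (median 0.28), or 16 and 8 with normexp and 15 and 10 without OF 0234 and 2258 (median 0.10). IFI6 was at 4.14, 3.40, 4.54 and 2.36 in OF, 3.74, 5.18, 4.37 and 4.12 in YF, and 3.30, 4.60 and 4.24 in the Contemporary cows, lowest in OF 2258 and highest in YF 1070 as PSMB9 and TAP2 were. limma called 0 of these genes in any comparison, and 1 had an unadjusted p within 0.05 in each: CXCL9 (OF against YF), GBP4 (Contemporary against YF) and RSAD2 (Contemporary against OF), named after their values were seen.

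Cell type markers moved with the animals as follows, and their part in the levels of the 10 genes was not tested. The 9 smooth muscle genes were higher in OF than in YF for 9 of 9 under every scaling tried (median 1.96), with a median of 1.10 without OF 2258 and of 0.10 without OF 0234 and 2258. Against OF they were lower in the Contemporary cows for 9 of 9 (median -1.99), or 5 of 9 without OF 0234 and 2258, and against YF 6 of 9 were higher, or 7 with quantile normalization or median centring and 2 without YF 1127. The 8 epithelial genes split into 3 higher and 5 lower in OF than in YF, 4 and 4 with normexp, and 8 and 0 without OF 2258. In the Contemporary cows 6 were higher than in YF and 5 higher than in OF, the latter 0 without OF 2258. Without YF 1069, 0 of the 8 were higher in OF or in the Contemporary cows than in YF. For the 8 stromal genes the OF minus YF difference was negative in 8 of 8 under every scaling tried (median -0.27), and 6 of 8 on slide 2 alone, and the Contemporary cows were higher than YF for 6 of 8 and higher than OF for 8 of 8 (median 0.50). Without OF 2258 the stromal median was -0.40 for OF minus YF, and without OF 0234 and 2258 it was -0.50, and 0.74 for Contemporary minus OF. YF 1069 was the highest of the 11 animals for 7 of the 8 stromal genes, and without it 3 were higher and 5 lower in OF than in YF (median -0.04). The 7 endothelial genes, led by VWF, were higher in the Contemporary cows than in YF for 7 of 7 under every scaling tried (median 0.53), higher than in OF for 7 of 7, or 6 with normexp, and higher in OF than in YF for 6 of 7. Without YF 1127 the last was 3 of 7, and the median of Contemporary minus YF was 0.27.

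The 8 general leukocyte genes, with ITGB2 as the brightest, were well above background on all 12 arrays, and their mean was -0.40, -1.16, -0.55 and -1.55 in OF, -1.17, -0.53, -0.57 and -0.92 in YF, and -1.14, -0.74 and -0.17 in the Contemporary cows. OF 2258 was lowest for 5 of the 8 and Contemporary 1129 highest for 6. In OF against YF 4 were higher and 4 lower, but 8 and 0 without OF 0234 and 2258 (median 0.25). The counts were 6 and 2 in Contemporary against YF, and in Contemporary against OF 8 and 0, or 7 and 1 with normexp and 3 and 5 without OF 0234 and 2258. Antigen presenting cell markers, 12 of 13 on the array with CSF1R as the brightest, were well above background on all 12 arrays for 6 genes, whereas CD163, ITGAM, FLT3, XCR1, CLEC9A and CD1B were not, ITGAM on none. The mean of this list ran from -5.24 to -4.65 in OF, from -5.25 to -4.75 in YF and from -5.10 to -4.66 in the Contemporary cows, and 6 of the 7 tested were higher in the Contemporary cows than in YF (median 0.26), 5 of 6 higher than in OF, and 4 of 7 higher in OF than in YF, or 6 with normexp. Of the B cell markers 4 of 6 were well above background on all arrays (MS4A1 and CD79B were not), and 2 of the 4 tested were higher in OF than in YF and 2 in the Contemporary cows than in YF, while 3 were higher in the Contemporary cows than in OF, or 2 with normexp. T and NK cell markers, led by GZMB, were so for 9 of 11 (not CD3G and CD4), with 3 of 9 higher in OF than in YF, 7 of 9 higher in the Contemporary cows than in YF and 4 of 9 than in OF. With normexp these counts were 5, 5 and 3, without OF 2258 the first was 6, and without YF 1127 the second was 2. Erythrocyte genes, led by HBA, were higher in the Contemporary cows than in YF for 4 of 4, or 3 with normexp, in OF than in YF for 3 of 4, and in the Contemporary cows than in OF for 2 of 4, or 4 with quantile normalization.

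**Figure D4:**
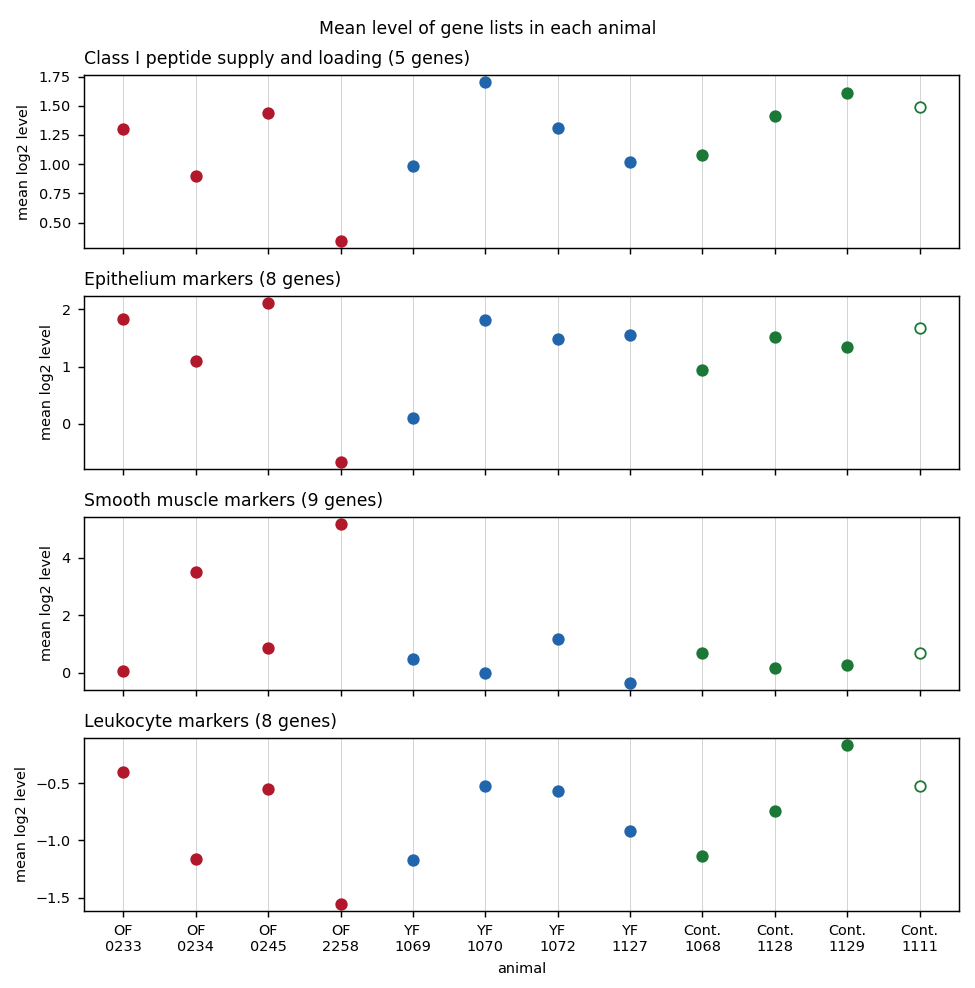
Mean level (vertical axes, log2 relative to the 75th percentile of the array) of the class I peptide supply genes PSMB8, PSMB9, TAP1, TAP2 and TAPBP, and of the epithelial, smooth muscle and leukocyte marker lists, in each animal, with cow 1111 as an open symbol. OF 2258 is lowest in the peptide supply, epithelial (-0.66) and leukocyte (-1.55) panels and highest in the smooth muscle panel (5.15).

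Cow 1111, left out of all comparisons above, was at 5.13 for B2M, 0.97 for PSMB8, 2.0 for PSMB9, 1.36 for TAP1, 1.81 for TAP2 and 1.30 for TAPBP, and each of these lay within the range of the other 11 animals. For CD74 (1.96), BOLA-DRA (3.48), NLRC5 (-0.20) and CIITA (-5.22) it was above all 8 clones, and for NLRC5 and CIITA above all other animals, by the mean of the probes. By NLRC5 probe 2 cow 1111 (1.35) lay within the clones (1.06 to 1.98). By CIITA probe 2 it was at -4.91, below Contemporary 1068 (-4.64) and 1129 (-4.83). Its BOLA-DRA level lay between those of Contemporary 1068 and 1129.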

How the data were processed

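Per the file headers, the authors read one-colour Agilent arrays of 12 cows with Feature Extraction 10.7.3.1 and deposited a background-corrected processed intensity per spot. From this intensity as deposited, log2 values minus the 75th percentile of the array were computed here and averaged per transcript. Of 61399 probes, 66 were dropped for an outlier flag, which kept 61333 probes of 26323 transcripts. Tested were transcripts for which, in 1 of the groups compared, all arrays had a probe clearly over background, with limma 3.58.1 (R 4.3.3), Benjamini-Hochberg adjusted over all transcripts tested, threshold 0.05. Exact permutation tests and correlations used SciPy 1.17.1 (Python 3.11.15). FCROS was computed with trim 0.25, f-values within 0.025 or 0.975, and fold 1.5.

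Members and lists were chosen with earlier results of these data known. Named are all members, from the further pathway lists up to 6 genes per direction with the largest difference among those whose groups do not overlap, the most abundant gene of each marker list (for 1 list it is not reported here), and the 5 transcripts nearest to TAP1 and CD74. A gene stands for its transcript with the highest mean. Alternatives were quantile normalization, median centring, normexp with offset 50, no filter on dim probes, the brightest probe, each probe on its own (the value given is the one nearest to 0), slide as a block, slide 2 only, all groups in 1 fit, array weights, cow 1111 included, each animal left out, FCROS and, chosen after seeing the data, OF 0234 and 2258 left out, the scalings and left-out animals for the named further genes, each YF animal left out for the lists, and correlations by each probe. Coordinates are from the array annotation (UMD 3.1). Promoter motifs were planned but not examined, as no promoter sequences were at hand.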

Additional observations from a re-analysis of the deposited data

Results flagged for a closer look

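The first 4 values were marked because 1 animal lay far from the other 3 of its group by Dixon's rule, which chance meets in about 1 in 20 groups; 120 groups were tested and 4 met it. B2M in YF 1127 was 5.23, with the next YF animal at 4.89. VWF in YF 1127 was 0.38, with the next at 1.43, and the mean of the endothelial list in the same animal was -1.92, with the next at -1.17. ACTA2 in YF 1072 was 5.08, with the next at 3.83.

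Cow 1111, left out of the main comparisons, was above all 8 clones for 4 members: CD74 at 1.96 (highest clone 1.49), BOLA-DRA at 3.48 (highest clone 3.16), NLRC5 at -0.20 (highest clone -0.30) and CIITA at -5.22 (highest clone -5.37). For NLRC5 this holds for the mean of its probes, as by probe 2 cow 1111 (1.35) lay within the clones (1.06 to 1.98). As a single array this carries no test.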

How the results depend on the processing

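With 3 or 4 animals per group, 0 members passed an adjusted test in any comparison, CIITA lay near background, and all used Contemporary cows were on slide 2. No paired analysis was possible because the animals of the groups are not matched. The sign of the difference was kept under all settings by 5 of 10 members in OF against YF (19 settings), 8 of 10 in Contemporary against YF (18 settings) and 6 of 10 in Contemporary against OF (19 settings). The cause was not tested where a value below differs.

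In OF against YF, FCROS called 1300 transcripts, but its f-value limits mark a share of transcripts whether or not the groups differ. Members whose groups do not overlap were 0 with quantile normalization and 3 on slide 2 alone (14.2% of all transcripts). TAPBP was at -0.12 with array weights and between -0.03 and 0.30 with 1 animal left out. NLRC5 was at -0.19 by probe 1 alone. Without OF 0234 and 2258, chosen after seeing the data, PSMB8 was at 0.15, TAP1 at 0.13 and TAP2 at 0.09.

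In Contemporary against YF, transcripts called were 1 with quantile normalization, 2 with all groups in 1 fit, 1 with array weights, 4 with cow 1111 included and 0 to 1 with 1 animal left out. Members whose groups do not overlap were 1 when all probes of a gene had to agree, 4 with slide as a block (12.7% of all transcripts), 7 on slide 2 alone (16.7%) and 2 to 5 with 1 animal left out (13.2% where 5). TAP2 was at 0.10 with slide as a block and 0.10 on slide 2 alone, and PSMB9 between -0.005 and 0.26 with 1 animal left out.

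In Contemporary against OF, transcripts called were 26 with array weights, 2 with cow 1111 included and 0 to 1 with 1 animal left out. Members whose groups do not overlap were 1 with quantile normalization and 2 to 5 with 1 animal left out (22% of all transcripts where 5). TAP2 was at -0.05 by the brightest probe, -0.03 by the probe spot nearest to 0, -0.01 with array weights and between -0.15 and 0.24 with 1 animal left out. TAPBP was between -0.09 and 0.23 with 1 animal left out. NLRC5 was at -0.20 by the brightest probe, which is also its probe nearest to 0, and CIITA at -0.04 with normexp. Without OF 0234 and 2258 the median of the members was 0.13, TAP2 was at -0.29 and TAPBP at -0.06.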
